A study of Mus musculus with 23 samples.

Results

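Myogenic regulators and muscle genes were described in sorted cells of the mouse incisor as a set of 10 genes out of 54347 in the deposited table. The set holds 4 transcription factors of the muscle lineage (Myog, Myod1, Myf5 and Pax7), a cadherin and a receptor subunit of muscle cells (Cdh15 and Chrna1) and 4 genes of the contractile apparatus and its filaments (Actc1, Des, Ttn and Myh3). The genes were picked by name with their measured values known, so their levels and fold changes are given as a description without a p-value.

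RNA was sequenced from cells of the labial cervical loop, a fold of epithelium at the growing end of the lower incisor that houses the stem cells of the dental epithelium, in mice at postnatal day 2. All mice carried the Sox2-GFP reporter, in which green fluorescent protein is driven by the endogenous promoter of Sox2, and the dissociated cells were separated by fluorescence-activated sorting into Sox2-positive cells, named in the labels as stem cells of the dental epithelium, and the remaining Sox2-negative cells. There were 6 Sox2-negative and 6 Sox2-positive libraries in batch A, and 4 Sox2-negative and 7 Sox2-positive libraries in batch B, all made by Smart-seq2, a full-length cDNA method for small amounts of RNA. The batches were done on separate days with different mice, and no label says whether the libraries of a batch came from separate mice, so n counts libraries and a p-value measures only the spread between these libraries, which may be technical.

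Skeletal muscle forms from progenitors that carry Pax3 or Pax7. Myf5 and Myod1 commit these cells to the myoblast lineage, Myog then drives their differentiation, and the cells leave the cell cycle, fuse and switch on sarcomere genes. The myogenic factors are basic helix-loop-helix proteins that bind E-boxes, short motifs of the form CANNTG, in the promoters of many muscle genes, often together with MEF2 proteins.

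Promoter sequences are shown for a regulator, a receptor subunit and 2 contractile genes, because Myog, Actc1 and Myh3 shared a pattern across the groups that Chrna1 did not. Each line gives the 250 bases before the gene start, written 5′ to 3′ on the gene's own strand, from RefSeq on build GRCm38.p6, with every CANNTG motif in capitals.
Myog promoter, chr1:134289754-134290003, plus strand: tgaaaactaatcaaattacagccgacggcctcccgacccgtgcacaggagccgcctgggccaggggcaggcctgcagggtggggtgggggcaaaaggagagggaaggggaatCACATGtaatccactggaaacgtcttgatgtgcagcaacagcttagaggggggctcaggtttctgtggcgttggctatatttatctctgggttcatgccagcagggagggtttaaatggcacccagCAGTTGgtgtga
Chrna1 promoter, chr2:73580339-73580588, minus strand: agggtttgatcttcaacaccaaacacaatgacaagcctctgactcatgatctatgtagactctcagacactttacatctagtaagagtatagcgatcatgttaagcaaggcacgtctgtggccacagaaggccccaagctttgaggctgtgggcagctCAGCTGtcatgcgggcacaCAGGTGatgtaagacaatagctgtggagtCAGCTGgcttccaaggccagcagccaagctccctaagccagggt
Myh3 promoter, chr11:67078050-67078299, plus strand: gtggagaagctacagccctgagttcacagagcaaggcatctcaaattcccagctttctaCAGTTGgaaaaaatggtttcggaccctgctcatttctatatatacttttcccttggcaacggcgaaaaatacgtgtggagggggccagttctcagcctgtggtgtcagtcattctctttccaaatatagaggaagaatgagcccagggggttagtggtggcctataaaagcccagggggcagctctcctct
Actc1 promoter, chr2:114052876-114053125, minus strand: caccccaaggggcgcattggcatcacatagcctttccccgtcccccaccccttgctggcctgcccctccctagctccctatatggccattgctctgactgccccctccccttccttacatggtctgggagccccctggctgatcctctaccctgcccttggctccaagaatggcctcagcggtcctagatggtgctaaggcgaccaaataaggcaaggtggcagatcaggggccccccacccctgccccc
The Myog window held 2 CANNTG motifs, which began 138 and 12 bases before the gene start, and its last 15 bases lay in an annotated exon. Chrna1 had 3 such motifs within its last 92 bases, and CAGCTG, a form of CANNTG, occurs in its window at 2 of these places. Myh3 had 1 motif, 191 bases before the start, and Actc1 had none in this window, of which 12 bases lay in an annotated exon. Of the 9 members with an entry, 6 held CANNTG, against 66.2% of 32851 promoters of the same length. Cdh15 was 1 of the 6, with 3 motifs, but all 250 bases of its window lay in annotated exons, as did those of Pax7. CAGCTG was held by 2 of the 9, against 13%. The MEF2 motif, searched on both strands, occurred in 1 of the 9, Ttn, 166 bases before its start, against 2.92% of promoters. A MEF2 site that departs from the searched form would not be counted, so a window without a match may still hold one. CANNTG and CAGCTG read as the same motif on both strands. These matches describe letters, not binding, and Myod1 was named only.

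The depth of the libraries, as the sum of estimated counts, ranged from 2305778 to 9541443 with a median of 4831091. A floor of 3 counts corresponded to 0.347 to 1.31 CPM, the count scaled to a common library total by the TMM method, and reflects counting error alone, because reads that carry no molecular identifier may stem from the same molecule. For Sox2, Sox2-positive cells averaged 7.35 ± 4.46 CPM (SD, n = 6) in batch A and 16.6 ± 2.9 CPM (n = 7) in batch B, and Sox2-negative cells 0.0422 ± 0.103 (n = 6) and 0.29 ± 0.579 CPM (n = 4), with no overlap between the populations. Epithelial markers (Krt14, Krt5, Epcam, Cdh1, Trp63 and Cldn1) summed to 2720 to 4534 CPM in Sox2-positive libraries and to 155 to 362.7 CPM in Sox2-negative libraries. In these bulk samples, fewer cells of a type and less RNA per cell cannot be told apart.

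Of the 10 muscle genes, 6 had their highest group mean in batch B Sox2-positive cells (Myog, Myod1, Actc1, Myh3, Ttn and Des). Myog, Myod1, Actc1 and Myh3 were higher in each of the 7 libraries of that group than in any of the other 16 libraries, and 3 of these 4 genes had at most 5 counts in total outside it. Such a separation was seen for 1.43% of the 17190 genes past the expression filter, and since the members were selected on these values their count of 4 of 10 is a description. Chrna1, Cdh15, Myf5 and Pax7 had their highest group mean in Sox2-negative cells, and Pax7 did not exceed the floor in any library.

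**Figure D1:**
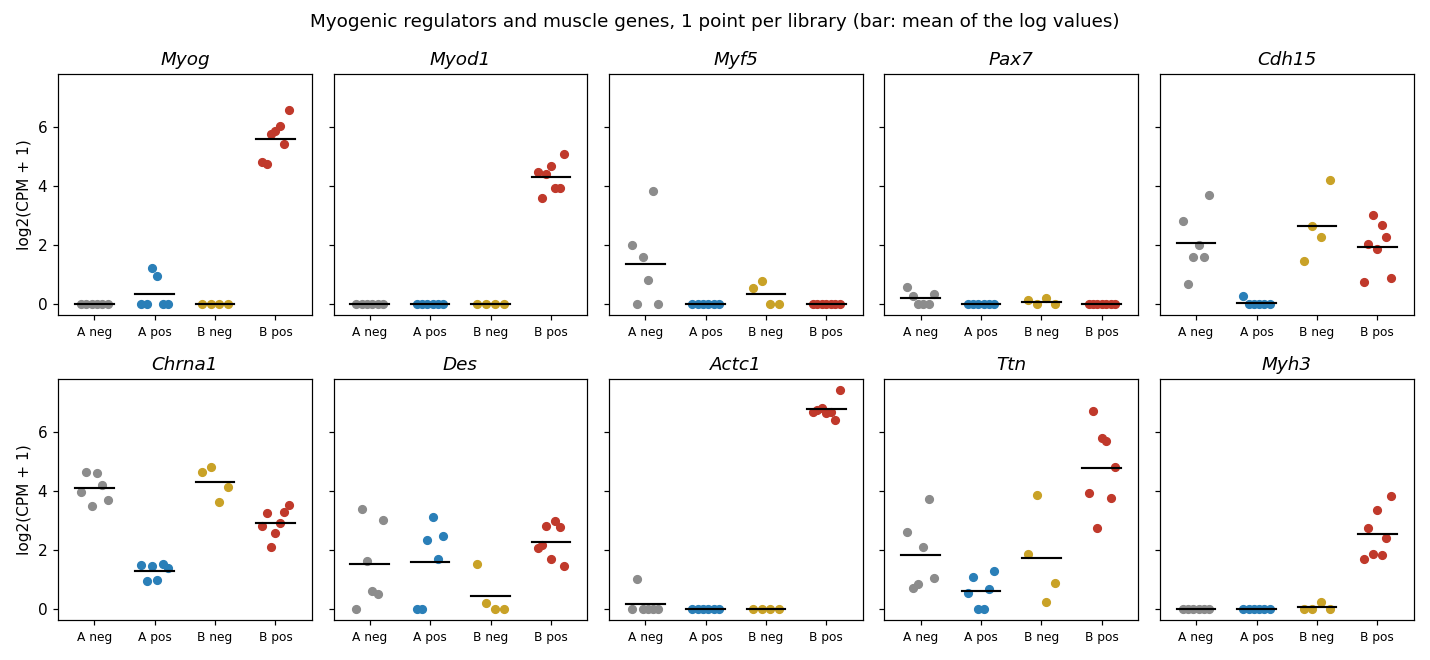
Level of each of the 10 genes in every library, as log2(CPM + 1) on the vertical axis, with 1 point per library, the 4 groups (A or B for the batch, neg or pos for the Sox2 sort) on the horizontal axis and a bar at the mean of the log values. Myog, Myod1, Actc1 and Myh3 stand apart in the 7 batch B Sox2-positive libraries, while Chrna1 is higher in the Sox2-negative groups (means of 16.9 and 19.8 CPM) and Pax7 is near 0 throughout.

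Among the regulators, Myog (chromosome 1, 134289989 to 134292548, GRCm38) is the factor of terminal differentiation. Over batch B Sox2-positive libraries 1 to 7 it was listed at 27.4, 26, 53.6, 58.3, 65.1, 41.9 and 94.2 CPM. The other libraries held almost none: batch A Sox2-positive libraries 3 and 4 had 1.33 and 0.954 CPM, from 7 and 4 counts, and the remaining 14 had 0. The group mean was 52.4 ± 23.7 CPM (SD, n = 7), which is 137.5 times the 0.381 ± 0.602 CPM (n = 6) of batch A Sox2-positive cells and at least 118-fold higher than in batch B Sox2-negative cells, taking the floor of 3 counts per library for the latter. Without library 3, the batch A Sox2-positive mean was 0.191 CPM, so the size of that ratio rests on a few counts. The fitted log2 difference between the batches in Sox2-positive cells was 7.06 (SE 0.78), and 8.09 without that library.

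Myod1 (chromosome 7, 46376474 to 46379099), the commitment factor, had no count in any library outside batch B Sox2-positive cells. In that group it stood at 21.3, 11.2, 20.2, 24.6, 14.5, 14.4 and 33.3 CPM in libraries 1 to 7, from 40 to 130 counts each. The mean of 19.9 ± 7.51 CPM (n = 7) was at least 33.3-fold higher than in batch A Sox2-positive cells and at least 44.9-fold higher than in batch B Sox2-negative cells.

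The early factors did not share this pattern. Myf5 (chromosome 10, 107482908 to 107486134) had 0 counts in all 13 Sox2-positive libraries, including the 7 with Myod1 and Myog. It was listed at 3.03, 0, 2.06, 0.759, 13.5 and 0 CPM in batch A Sox2-negative libraries 1 to 6 and at 0.463, 0.739, 0 and 0 CPM in the batch B Sox2-negative ones. Its batch A Sox2-negative mean of 3.22 ± 5.16 CPM (n = 6) fell to 1.17 CPM without library 5, and the 2 Sox2-negative groups overlapped. Pax7 (chromosome 4, 139737062 to 139833528), the marker of satellite cells, had 4 counts in all over the 6 batch A Sox2-negative libraries, 2 over the 4 batch B ones and 0 in every Sox2-positive library. Both genes missed the expression filter, and differences in Pax7 were not detectable at this depth.

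Of the contractile genes, Actc1 (chromosome 2, 114047282 to 114053548), the cardiac alpha-actin that is also the actin of embryonic skeletal muscle, had the highest level. Batch B Sox2-positive libraries 1 to 7 were at 99.9, 104.8, 110.4, 98.2, 100, 84.3 and 171.7 CPM. Of the 16 other libraries, 15 had no count and batch A Sox2-negative library 2 had 5 counts, or 1.04 CPM. The mean of 109.9 ± 28.4 CPM (n = 7) was at least 183.4-fold higher than in batch A Sox2-positive cells and at least 247.6-fold higher than in batch B Sox2-negative cells. Actin genes are close copies of one another in their coding sequence, so reads may be split between them, and the part of this was not tested. Acta2, the smooth muscle alpha-actin, averaged 220.5 ± 19.1 CPM (n = 4) in batch B Sox2-negative cells, where Actc1 had 0 counts, and 207.3 ± 13.5 CPM (n = 7) in batch B Sox2-positive cells. Acta1, the skeletal alpha-actin, was also present in every batch B Sox2-positive library. It was at 115.7 to 125.2 CPM in libraries 1 and 2 and 105.1 to 180 CPM in libraries 3 to 7. The split of reads between Actc1 and Acta1 was not tested.

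Myh3 (chromosome 11, 67078300 to 67102291), the embryonic myosin heavy chain, was low but present in all 7 batch B Sox2-positive libraries, at 2.2, 5.75, 2.65, 9.1, 2.55, 4.23 and 13.1 CPM. A single count in batch B Sox2-negative library 3 was the only one elsewhere. The group mean of 5.66 ± 4.09 CPM (n = 7) was at least 9.45-fold higher than in batch A Sox2-positive cells, and 140.8 times that of batch B Sox2-negative cells, with an interval of 25.3 to 5562 from the counting error of that 1 count (95% Poisson).

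Ttn (chromosome 2, 76703980 to 76982547) encodes titin, the giant spring protein of the sarcomere. Of the members, it had the largest SD relative to its mean within batch B Sox2-positive cells, at 14.2, 102.6, 5.76, 53.9, 50.2, 12.5 and 27.2 CPM in libraries 1 to 7. All 7 exceeded the highest batch A Sox2-positive library (1.44 CPM), while libraries 3 and 6 lay under the highest batch B Sox2-negative library (13.6 CPM). Means were 38 ± 34 CPM (n = 7) in batch B and 0.598 ± 0.581 CPM (n = 6) in batch A Sox2-positive cells, a ratio of 63.6, and 4.31 ± 6.27 CPM (n = 4) in batch B Sox2-negative cells, which was 1.22 CPM without library 2.

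Des (chromosome 1, 75360329 to 75368579), the intermediate filament of muscle cells, separated no group. In batch B Sox2-positive libraries it was listed at 3.22, 3.45, 6.07, 2.21, 6.91, 5.89 and 1.75 CPM, and in batch A Sox2-positive libraries at 0, 0, 3.99, 7.63, 2.25 and 4.48 CPM. Their means of 4.21 ± 2.05 (n = 7) and 3.06 ± 2.94 CPM (n = 6) differed by less than the spread between libraries, with a fitted log2 difference of 0.46 (SE 1.02). The batch B Sox2-negative mean of 0.5 ± 0.905 CPM (n = 4) came almost wholly from library 1, without which it was 0.0492 CPM.

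The 2 surface proteins had their highest group means in Sox2-negative cells, unlike Actc1, Ttn and Myh3. Chrna1 (chromosome 2, 73563215 to 73580338), the alpha subunit of the muscle acetylcholine receptor, ranged from 10.3 to 23.7 CPM with a median of 16 in batch A Sox2-negative libraries and from 11.4 to 27 CPM in batch B ones. In Sox2-positive libraries it ranged from 0.906 to 1.84 CPM (median 1.66) in batch A and from 3.27 to 10.5 CPM (median 6.55) in batch B. No Sox2-positive library of batch A reached any other group, and within batch B every Sox2-negative library was above every Sox2-positive one. The fitted log2 difference of Sox2-positive from Sox2-negative cells was -3.54 (SE 0.47) in batch A and -1.50 (SE 0.35) in batch B, and that between the batches in Sox2-positive cells was 2.21 (SE 0.38).

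Cdh15 (chromosome 8, 122847966 to 122867397), or M-cadherin, an adhesion molecule of myoblasts and satellite cells, ranged from 0.623 to 12.1 CPM in batch A Sox2-negative libraries, from 1.74 to 17.4 CPM in batch B Sox2-negative libraries and, in batch B Sox2-positive libraries, from 0.678 to 7.16 CPM. Those 3 groups overlapped. Batch A Sox2-positive libraries held 1 count in all, and the batch B Sox2-positive mean of 3.41 ± 2.34 CPM (n = 7) was 91.5 times theirs, with a counting interval of 16.4 to 3614. Without library 4, the batch B Sox2-negative mean of 7.08 ± 7.04 CPM (n = 4) was 3.64 CPM.

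Per kilobase of annotated exon, the order of levels in batch B Sox2-positive cells put Actc1 first at 67.8 ± 17.5 CPM per kilobase, then Myog at 34.9 ± 15.8, Myod1 at 10.7 ± 4.04 and Chrna1 at 1.58 ± 0.567 (n = 7 each). Des (1.12 ± 0.546), Cdh15 (1.05 ± 0.721), Myh3 (0.934 ± 0.676) and Ttn (0.326 ± 0.291) followed. The ranges of 1 SD around the mean overlapped between Actc1 and Myog and between each pair of neighbours from Chrna1 down, but not between Myog and Myod1 or between Myod1 and Chrna1. In both Sox2-negative groups Chrna1 had the highest level of the members on the same scale, at 3.84 ± 1.29 (n = 6) and 4.5 ± 1.62 (n = 4) CPM per kilobase.

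The 7 batch B Sox2-positive libraries differed among themselves. Library 7, the shallowest with 2305778 counts, held the highest value of 5 of the 8 members above the floor (Myog, Myod1, Chrna1, Actc1 and Myh3), while Ttn was highest in library 2, Cdh15 in library 3 and Des in library 5. Libraries 1 and 2 were at 26 to 27.4 CPM for Myog, under the 41.9 to 94.2 CPM of libraries 3 to 7. Those same 2 libraries had lower epithelial keratins, with Krt5 at 549.3 to 595 CPM against 1222 to 1392 CPM and Krt14 at 856.3 to 899.3 CPM against 1343 to 1535 CPM. Actc1 overlapped between them, at 99.9 to 104.8 and 84.3 to 171.7 CPM. The part of the keratin difference in the Myog difference was not tested.

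Sox2-positive cells of the 2 batches were then compared across all genes. Of the 8 members past the filter, 7 were called, all of them higher in batch B, by edgeR's quasi-likelihood test, where 4.95% of all genes tested were called higher and 5.48% lower. Des was the exception, and Cdh15, at 5.89 (SE 1.02) on the log2 scale, was at 7.14 without batch A library 1, which held its only count there. The members were selected on this contrast, so nothing is read from that count. Under scaling by total counts in place of TMM, 666 genes were called higher and 1213 lower, against 851 and 942.

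The other muscle genes were taken from 8 lists of 105 genes, of which 74 passed the filter. Summed, the 105 genes overlapped between all 4 groups, at 2001 ± 79.6 CPM (n = 7) in batch B and 1781 ± 115.7 CPM (n = 6) in batch A Sox2-positive cells, and at 1872 ± 140 CPM (n = 4) and 2010 ± 250.3 CPM (n = 6) in the Sox2-negative cells of batches B and A. Of these 74, batch B Sox2-positive cells were higher for 19 (25.7%) and lower for 5 (6.76%). Over all genes tested, 4.95% were called higher and 5.48% lower, so the share lower was near that over all genes. The same shares over all genes stand beside the counts of each single list below. The median log2 difference was 0.75 against 0.00 over all genes tested. The median was also 0.75 with the 7 genes that had no count in one of the groups set to their bound. Counts of 19 and 5 were the same under RLE and total-count scaling. Thin-filament genes made up 6 of the 19, out of 12 that passed the filter. Acta1, the adult skeletal alpha-actin, averaged 128.4 ± 24.3 CPM (n = 7) in batch B and 0.693 ± 1.7 CPM (n = 6) in batch A Sox2-positive cells (log2 difference 7.30, SE 0.80, adjusted p 1.38e-06). All of the batch A value came from 26 counts in library 6, without which the log2 difference was 12.34. Tpm2, a tropomyosin that smooth muscle and fibroblasts also express, rose from 16.2 ± 2.37 to 37.1 ± 2.84 CPM (log2 difference 1.19, SE 0.12, adjusted p 3.82e-08), under its levels of 205.1 ± 10.9 and 189.9 ± 19.8 CPM in the Sox2-negative cells of batches A and B. Klhl41, which stabilises nebulin in the thin filament, rose by 1.75 (SE 0.35, adjusted p 0.0011) on the log2 scale. Tnnc2, fast troponin C, was named after its values were seen: it had no count outside batch B Sox2-positive cells, where it averaged 3.31 ± 1 CPM (n = 7).

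Of 11 genes of the thick filament, M band and Z disc past the filter, 3 were called, all higher. Myl1, the fast essential light chain of myosin, had 0 counts in all batch A Sox2-positive libraries and 41.1 ± 7.7 CPM (n = 7) in batch B ones, at least 68.6-fold higher (adjusted p 3.82e-08). Csrp3, the muscle LIM protein, averaged 10.3 ± 2.24 CPM (n = 7) against 0 counts and was likewise named after its values were seen. Myom1, myomesin of the M band, did not pass the test, with a log2 difference of 1.34 (SE 0.89, adjusted p 0.429).

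Genes of excitation-contraction coupling gave 2 called of 12, both higher. Sln, sarcolipin, the inhibitor of the calcium pump and chosen after its values were seen, was at 9.42 ± 3.32 CPM (n = 7) with no count in the other 16 libraries. The leading genes of that list by level did not pass the test: Cacnb1, a calcium channel subunit, had a log2 difference of -0.36 (SE 0.67, adjusted p 0.847), Srl, sarcalumenin, -1.30 (SE 0.72, adjusted p 0.311), and Ryr1, the calcium release channel, 0.86 (SE 0.96, adjusted p 0.694). Energy metabolism gave 2 higher of 6, led by Ckm, muscle creatine kinase, at 52.2 ± 12.9 CPM (n = 7) against 0.38 ± 0.669 CPM (n = 6; log2 difference 6.98, SE 0.67, adjusted p 6.89e-08). Without batch A library 3, the Ckm difference was 8.50. Eno3 (beta-enolase) and Pgam2 (muscle phosphoglycerate mutase) did not pass, at 0.17 (SE 0.36, adjusted p 0.878) and -0.74 (SE 0.66, adjusted p 0.593).

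Among 12 genes of myoblast receptors and fusion, 4 were higher and 3 lower. The fusion proteins myomaker (Mymk, 7.46 ± 1.49 CPM, n = 7) and myomixer (Mymx, 7.09 ± 3.89 CPM) were above every other library in all 7, and so were Met, the receptor of hepatocyte growth factor, and Boc, a co-receptor of hedgehog signalling. These 4 were named after their values were seen. Lower were Ncam1, the neural cell adhesion molecule (log2 difference -0.84, SE 0.13, adjusted p 7.68e-05), Heyl, a Notch target (-2.06, SE 0.41, adjusted p 0.00105), and Itga7, a laminin receptor, which was also named after its values were seen. Sdc4, syndecan-4, was at 416.5 ± 32.1 CPM (n = 6) and 490.9 ± 57.4 CPM (n = 7) and did not pass (adjusted p 0.227).

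Of 10 regulators and co-factors past the filter, 1 was higher, Mef2a, and 2 were lower, Mef2c and Pax3. Mef2a and Pax3 were named after their values were seen. Mef2c, a partner of the myogenic factors that endothelium and neural crest also use, averaged 95 ± 23.2 CPM (n = 6) in batch A and 12.2 ± 4 CPM (n = 7) in batch B Sox2-positive cells (log2 difference -2.96, SE 0.24, adjusted p 1.18e-09). Pax3, the factor of limb muscle progenitors and of neural crest, was at 1.02 ± 0.784 CPM (n = 6) and, from 1 count, 0.0242 ± 0.064 CPM (n = 7; adjusted p 0.000251). Tbx1 (326.7 ± 46.9 and 256.4 ± 63.5 CPM; adjusted p 0.502), a T-box factor of branchial muscle and of dental epithelium, and Hes6 (132.7 ± 20.8 and 101.7 ± 10.4 CPM; adjusted p 0.467), a Hes family member expressed in myoblasts and neurons, did not pass.

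The acetylcholine receptor and synapse list had 0 of 5 called by edgeR, with 1, Ache, at an unadjusted p under 0.05 and the same 1 called lower by DESeq2 and by limma-voom. Lrp4, the agrin receptor, differed by -0.02 (SE 0.20, adjusted p 0.985), Ache, acetylcholinesterase, by -1.29 (SE 0.51, adjusted p 0.114), and Chrnb1, the beta subunit of the receptor, by -0.35 (SE 0.73, adjusted p 0.872) on the log2 scale. In the dystrophin complex the 3 most abundant genes did not pass: Dag1, dystroglycan (-0.41, SE 0.17, adjusted p 0.131), Sgcb, beta-sarcoglycan (-0.07, SE 0.37, adjusted p 0.959), and Dmd, dystrophin (-0.48, SE 0.41, adjusted p 0.567). Over all 8 lists, 12 of the 105 genes were above every other library in all 7 batch B Sox2-positive libraries. Such a separation was seen for 1.43% of the 17190 genes past the filter. Mymk, Mymx, Boc, Met, Acta1, Tnnc2, Myl1, Mylpf, Csrp3, Sln and Ckm were among the 12. The lists were chosen with earlier results known and include genes not past the filter, so this count is a description. At or under the floor in all 23 libraries were 6 of the 105, among them Myf6 and Lbx1.

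**Figure D2:**
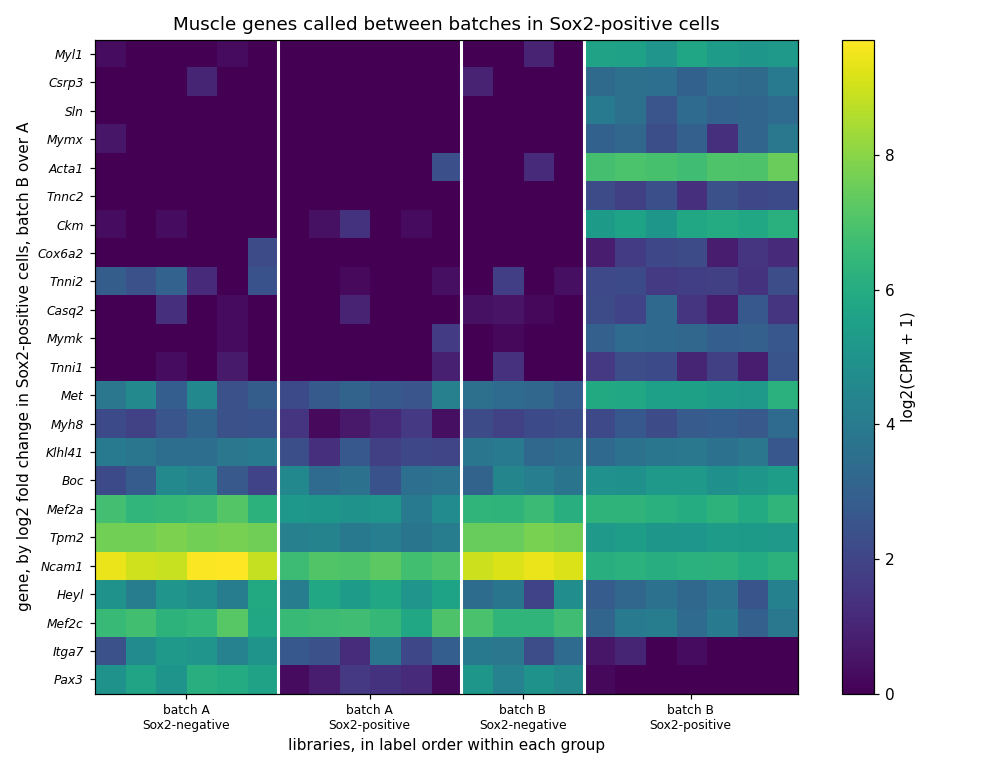
Level of 23 of the 24 listed muscle genes called between the batches in Sox2-positive cells, as log2(CPM + 1) by colour, with 1 column per library grouped by batch and sort and genes ordered by their log2 fold change. The upper rows, from Myl1 to Ckm, are near 0 in most libraries of the first 3 groups and present in all 7 batch B Sox2-positive libraries, while Tpm2 and Ncam1 are brightest in Sox2-negative cells.

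Within batch B, Sox2-positive cells were compared with Sox2-negative cells. Of the 8 members past the filter, 6 were called higher and 1, Chrna1, lower, where 27.1% of all genes were called higher and 27.6% lower. The members were selected on these values too. The fitted log2 difference was 12.27 (SE 0.49) for Actc1, 3.16 (SE 0.88) for Ttn and 2.96 (SE 0.92) for Des. Ttn was at 4.87 without Sox2-negative library 2, and Des at 5.83 without Sox2-negative library 1. For Cdh15, which was not called, the 2 groups overlapped. Of 70 genes of the other muscle lists past the filter, 30 were higher and 13 lower, with a median of 0.84 (also 0.84 with 7 genes at their bound) against 0.01 over all genes.

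Sarcomere genes, dystrophin and the branchial factor Tbx1 were among those higher. Acta1 rose by 8.69 (SE 0.51, adjusted p 7.36e-10), Ckm by 11.19 (SE 0.55, adjusted p 1.61e-09) and Myl1 by 7.43 (SE 0.61, adjusted p 4.41e-08) on the log2 scale. Dmd rose by 2.93 (SE 0.29, adjusted p 3.6e-07) and Tbx1 by 3.03 (SE 0.23, adjusted p 2.2e-08). The 8 Acta1 counts and the 6 Myl1 counts of the Sox2-negative cells all came from library 3, without which the values were 12.48 and 10.84. Ckm, like Actc1, had 0 counts in these Sox2-negative cells, so both fitted values depend on the prior count and the mean of Ckm was at least 117.7-fold higher. Tpm2 and Ncam1 were lower, at -2.33 (SE 0.12, adjusted p 1.87e-10) and -3.06 (SE 0.11, adjusted p 1.93e-12). Chrnb1 (1.65, SE 0.65, adjusted p 0.0406) and Cacnb1 (-1.06, SE 0.44, adjusted p 0.0492) each lost the call in 7 of the 11 fits that left out a single library, with adjusted p of 0.058 to 0.0923 and 0.0626 to 0.205 there.

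Batch A showed the sort without the high muscle levels. Only 2 members passed its filter: Chrna1, called lower in Sox2-positive cells, and Des, with a log2 difference of -0.15 (SE 1.12), where 19.3% of genes were called higher and 24.2% lower. Of 41 other muscle genes past the filter, 8 were higher and 12 lower, with a median of -0.05 against -0.04 over all genes. The fit of 4 group means over all 23 libraries called 14 higher and 18 lower in this comparison. Dmd (2.62, SE 0.56, adjusted p 0.00128) and Tbx1 (4.26, SE 0.36, adjusted p 1.22e-07) were higher in Sox2-positive cells in this batch as well, where Acta1, Ckm and Myl1 had too few counts to be tested. Ache (4.64, SE 0.68, adjusted p 4.25e-05) was higher, and Tpm2 (-3.70, SE 0.15, adjusted p 1.12e-11) and Klhl41 (-2.01, SE 0.45, adjusted p 0.00199) were lower.

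The population by batch interaction tests whether the difference between the sorted populations differed between the batches. Of the members, 4 were called higher (Cdh15, Chrna1, Actc1 and Ttn), with 2.72% of all genes called higher and 4.24% lower. For Myog, Myod1 and Myh3 the interaction could not be estimated. Myog and Myod1 had no count in the Sox2-negative cells of either batch. Myod1 and Myh3 had no count in either population of batch A. Actc1 had 0 counts in batch A Sox2-positive and batch B Sox2-negative cells, so the size of its value, 15.29 (SE 1.98), depends on the prior count. That value also rests on the 5 counts of 1 batch A Sox2-negative library. Without that library the interaction could not be estimated, and the fitted 12.13 equalled the batch difference in Sox2-positive cells. Among the other muscle genes 12 of 74 were higher and 5 lower, including Myl1 (9.43, SE 2.19, adjusted p 0.00946), Ckm (9.07, SE 2.28, adjusted p 0.0151), Tpm2 (1.30, SE 0.18, adjusted p 1.43e-05) and Klhl41 (1.91, SE 0.52, adjusted p 0.0239). Myl1 had 0 counts in batch A Sox2-positive cells and Ckm had 0 in batch B Sox2-negative cells. The sizes of their values therefore depend on the prior count too. The calls of Ckm, Myl1 and Klhl41 were lost without each of 2 libraries: batch A Sox2-negative libraries 1 and 3 for Ckm (adjusted p 0.0866 and 0.087), 1 and 5 for Myl1 (0.0623 and 0.0639), and batch B Sox2-negative libraries 3 and 4 for Klhl41 (0.0519 and 0.0529). Ttn, at 5.72 (SE 1.37), was at 7.47 without batch B Sox2-negative library 2, and Cdh15, at 5.18 (SE 1.31), was at 6.47 without batch A Sox2-positive library 1. Without the batch B libraries numbered 1 and 2 in both populations, 9 of the muscle genes were called in place of 17.

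Few of these genes were called between the Sox2-negative cells of the 2 batches. None of the 8 members past the filter was called by edgeR, DESeq2 or limma-voom, with 1, 2 and 0 of them at an unadjusted p under 0.05, where 6.07% of all genes were called higher in batch B and 5.22% lower. Of the 74 other muscle genes, 2 were higher (Cdon, a co-receptor of hedgehog signalling, and Dag1) and 1 was lower (Lrp4), with a median of -0.04. Cdon was named after its values were seen. Scaling by total counts shifted the median of all genes to -0.15 and gave 662 genes higher and 1381 lower in this comparison, against 1043 and 897 with TMM. Dag1 differed by 1.26 (SE 0.19, adjusted p 6.5e-05) and Lrp4 by -1.39 (SE 0.24, adjusted p 0.000304).

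With batch as a covariate over all 23 libraries, 4 members were called higher in Sox2-positive cells (Myog, Myod1, Actc1 and Myh3) and 2 lower (Cdh15 and Chrna1), where 26.6% of all genes were called higher and 31.3% lower. The Actc1 difference of 8.38 was 11.29 without batch A Sox2-negative library 2, and DESeq2 turned its direction, to -0.35. The fit averages batches that differed for these genes, and Ttn, at -0.10 (SE 0.96), had opposite signs within the batches' group means. Of 74 other muscle genes, 23 were higher and 17 lower.

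Markers of other cell types were set beside these levels. Cardiac muscle shares Actc1 and Ttn with skeletal muscle. Of its 6 markers, 3 (Nppa, Nkx2-5 and Myl7) had 0 counts in all 13 Sox2-positive libraries. The 6 summed to 3.94 to 12.4 CPM in batch B and 1.02 to 11 CPM in batch A Sox2-positive libraries. These sums came from Myh6, Tnni3 and Ryr2. Batch B Sox2-positive cells had the highest mean sum, at 8.29 ± 3.03 CPM (n = 7), but the groups overlapped. Tnni3 and Ryr2 passed the filter and were not called between the batches in Sox2-positive cells. Of the 8 smooth muscle and pericyte markers, 6 passed the filter and 2 of these, Acta2 and Tagln, were higher in batch B Sox2-positive cells. Their sum was 419.6 to 452.8 CPM there, against 86.4 to 123.7 CPM in batch A Sox2-positive libraries. Tagln averaged 210.2 ± 12 CPM (n = 7) and 63.7 ± 6.66 CPM (n = 6), while Myh11, the smooth muscle myosin, was at 0.232 ± 0.543 and 0.317 ± 0.777 CPM and Rgs5, a pericyte marker, at 1.44 ± 0.987 and 0.932 ± 1.95 CPM. The part of smooth muscle genes in the result was not tested.

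Other markers also moved with batch in the Sox2-positive cells. All 6 glial and neural crest markers were lower in batch B, with sums of 38.3 to 73.3 CPM against 783 to 986.6 CPM, and the 5 ameloblast markers, 4 of which were tested and all 4 lower, summed to 6.91 to 10.2 CPM against 292.4 to 353.1 CPM. Mesenchymal markers summed to 102.8 to 123.3 CPM against 672.2 to 1098 CPM, with 3 of 8 lower. Endothelial markers (0.368 to 4.43 CPM), leukocyte markers (4.38 to 8.62 CPM) and erythroid markers (0 to 6.61 CPM) were low in batch B Sox2-positive libraries. The part of these differences in the muscle result was not tested, and batch cannot be told apart from the mice and the day.

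**Figure D3:**
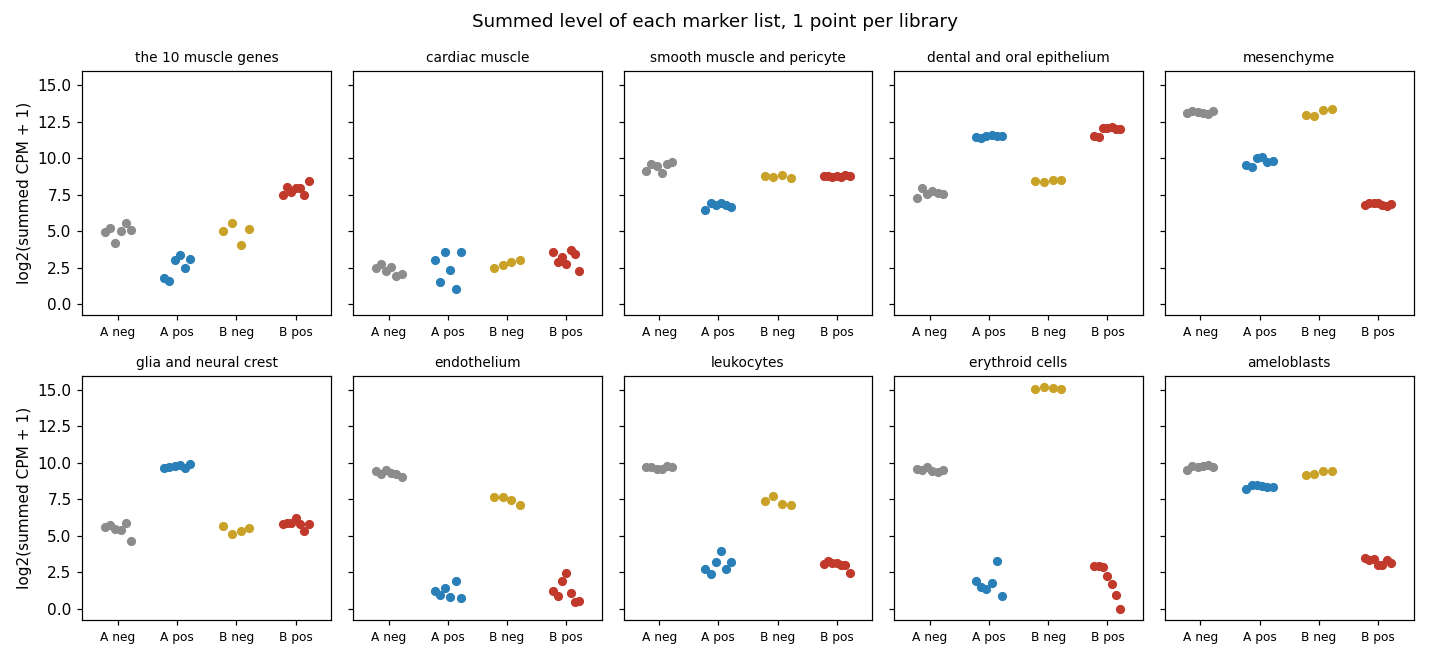
Summed level of the 10 muscle genes and of each list of cell type markers, as log2(summed CPM + 1) on the vertical axis, with 1 point per library and the 4 groups on the horizontal axis. The muscle genes sum to 175 to 352.6 CPM in batch B Sox2-positive libraries and to 1.99 to 9.54 CPM in batch A ones, the glial list shows the reverse order, and the cardiac list is low in all 4 groups.

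The genes whose pattern over the 23 libraries was most like that of the members were found by the root mean square difference of centred log2 CPM from the median profile of the 8 members past the filter, among 12958 genes with a mean of at least 5 CPM. Met was the nearest, at 1.07, followed by Abi3bp, Slc12a2, Tagln, Myl1, Itprid2, Gm13456, Cdc42ep3, Prag1 and Ckm, the tenth at 1.4, with the 11th at 1.41. Of these 10 nearest genes, 3 were on the muscle lists, which held 0.301% of the genes compared. Of the 50 nearest, 4 were on them. Myl1 and Ckm reached the mean of 5 CPM only through batch B Sox2-positive cells. Their means there were 41.1 and 52.2 CPM, against at most 0.241 and 0.38 CPM in the other groups. Members and lists were chosen with earlier results of these data known, so nothing is read from these counts. The Na-K-Cl cotransporter gene Slc12a2 was at 353.8 ± 86.4 CPM (n = 7) in batch B Sox2-positive cells and 72.4 ± 7.96 (n = 6), 116.4 ± 7.03 (n = 4) and 57.3 ± 14.5 CPM (n = 6) in batch A Sox2-positive, batch B Sox2-negative and batch A Sox2-negative cells. Abi3bp, which encodes an extracellular matrix protein, was at 40.3 ± 8.32 CPM (n = 7) against 4.87 to 7.85 CPM on average in the other groups. By the same measure Myh3 (0.596), Myod1 (0.89) and Ttn (1.27) lay nearer to that profile than the tenth gene, while Myog (1.44), Actc1 (1.85), Des (2.02), Cdh15 (2.25) and Chrna1 (2.33) lay farther from it, so the profile describes some members and not others. The measure was taken over libraries that share their batch and sort, and it describes likeness of levels in these libraries.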

How the data were processed

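The authors deposited 1 table of estimated counts for 54347 genes in 23 libraries, with no scaling to a common depth. Per the submitters' processing notes, FastQC, Trimmomatic and Salmon were used with build mm10 (GRCm38), with versions not given in the sources used here. Of the deposited nonzero values 0.487% were whole numbers, within 1e-9, while every column total lay within 0.111 of one, so an adjustment per gene, not stated in the sources used here, may be part of the values. A count is therefore a rounded estimate, and the floor and the Poisson intervals are approximate. No strand setting is stated, so antisense reads cannot be told apart. All per-sample columns were used.

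Counts were rounded to whole numbers and tested with edgeR 4.0.16 in R 4.3.3, with TMM scaling and quasi-likelihood F tests. The filter was filterByExpr (minimum count 10) over the groups in each fit, all 4 for both batches and only its own for a single batch. Benjamini-Hochberg adjustment was over all genes tested, with a call at an adjusted p under 0.05 (two-sided). The standard error is the absolute log2 fold change divided by the square root of F. The fit over both batches had batch as a covariate, each batch was also fitted alone, and the interaction and the differences between batches came from a fit of 4 group means over all 23 libraries. The fit was tested on simulated data. Folds against a group at 0 use 3 counts per library.

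Groups follow the labels. Symbols and positions come from the GENCODE mouse annotation, release M21 (54094 identifiers matched, 99.5%), and exon length is the union of a gene's annotated exons. The members and lists were chosen with earlier results of these data known. Genes named were the 10 members, in each muscle list the 3 highest by mean CPM past the filter, and the 10 nearest genes by profile (prior count 2). Others are said to have been named after their values were seen. Some genes of these lists are not reported here. Same-numbered libraries of the populations did not deviate together (correlations of -0.0247 to 0.062 over 15335 genes), so numbers were not used as pairs. Alternatives were RLE and total-count scaling, no filter, a mean of at least 10 counts, DESeq2 1.42.0, limma-voom (limma 3.58.1), a replicate block, other samples in the fit, and libraries left out.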

Additional observations from a re-analysis of the deposited data

Results flagged for a closer look

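A library that stood far from the rest of its group, by Dixon's 95% criterion, was found in 4 of the 23 combinations of a member and a group that could be tested, where chance gives about 1 in 20 for normally distributed values. Some of these combinations were at or near 0 in most libraries, so the 4 are not read against that rate. Myf5 in batch A Sox2-negative cells was at 13.5 CPM in library 5, with the next library at 3.03 CPM. Des in batch B Sox2-negative cells was at 1.85 CPM in library 1, with the next at 0.148 CPM. Actc1 in batch A Sox2-negative cells was at 1.04 CPM in library 2 and at 0 in the others, where any single value above 0 would be flagged. In batch B Sox2-positive cells, Actc1 was at 171.7 CPM in library 7, with the next at 110.4 CPM.

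By edgeR's interaction test, the difference between the sorted populations differed between the batches for 9 of the muscle genes named by rule. On the log2 scale, as the batch B difference minus the batch A difference, it was more positive in batch B for Myl1 (9.43, adjusted p 0.00946), Ckm (9.07, adjusted p 0.0151), Klhl41 (1.91, adjusted p 0.0239), Lrp4 (1.37, adjusted p 0.00621) and Tpm2 (1.30, adjusted p 1.43e-05). It was more negative in batch B for Mef2c (-3.00, adjusted p 1.98e-06), Ache (-2.90, adjusted p 0.0282), Dag1 (-1.67, adjusted p 9.09e-05) and Ncam1 (-0.75, adjusted p 0.021). The rule named 3 genes in each of 8 lists, and over all genes tested 2.72% were called higher and 4.24% lower. Myl1 and Ckm each had a group with no count, so the sizes of their values depend on the prior count. Leaving out single libraries ended the call for Ache (3 of 23 libraries: batch A Sox2-positive 5 and 6 and batch B Sox2-negative 1, adjusted p 0.0514 to 0.117), Ckm (2, batch A Sox2-negative 1 and 3, 0.0866 to 0.087), Klhl41 (2, batch B Sox2-negative 3 and 4, 0.0519 to 0.0529), Myl1 (2, batch A Sox2-negative 1 and 5, 0.0623 to 0.0639) and Ncam1 (1, batch B Sox2-negative 3, 0.0619).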

How the results depend on the processing

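Of the listed muscle genes past the filter, 40 of 74 were called in the fit over both batches (38 to 44 with each library left out). Batch A had 20 of 41 (19 to 23) and batch B 43 of 70 (35 to 44). The interaction had 17 of 74 (15 to 20). Between batches, Sox2-negative cells had 3 of 74 (2 to 4) and Sox2-positive cells 24 of 74 (20 to 25). Over all genes, the calls were 9944 of 17190 over both batches, 6209 of 14296 in batch A and 8623 of 15765 in batch B. For the other 3 comparisons they were 1196, 1940 and 1793 of 17190, in the same order. Among the muscle genes, the fit of 4 group means called 32 of 74 for batch A. The interaction gave 7 with the replicate block and 9 without batch B libraries 1 and 2. Sox2-negative cells gave 6 with no filter, 6 with DESeq2 and 5 with limma-voom. The replicate block moved no other count of muscle genes by over 1.5 times. Over all genes, interaction calls went from 1196 to 565 with the replicate block and to 481 without batch B libraries 1 and 2, calls in Sox2-negative cells from 1940 to 3154 with limma-voom and to 756 without those libraries, and calls in Sox2-positive cells from 1793 to 1157 without them. The cause was not tested. For the members' log2 differences that were called, 1 of 678 alternative values reversed its sign: Actc1 over both batches was -0.35 with DESeq2, against 8.38. For those not called, 26 of 494 had the opposite sign, over 6 results: Ttn over both batches (-0.10, up to 2.12), Des in batch A (-0.15, up to 0.56) and, between batches in Sox2-negative cells, Cdh15 (0.71, down to -0.24), Chrna1 (0.23, down to -0.28), Ttn (0.16, down to -2.91) and Myh3 (1.34, down to -0.31). Among 839 alternative values for called muscle genes, 54 lost their call, over 11 results, and 0 reversed. Levels near the floor of 0.347 to 1.31 CPM, such as those of Pax7, are limited by depth.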
